A study of Arabidopsis thaliana with 6 samples.

Results

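A group of transcripts that gave little or no signal in wild-type Arabidopsis thaliana seedlings was detected more strongly in the chromatin mutant pkl-1. The members were chosen by measured values: a wild-type mean below 3.5 log2 units, a pkl-1 mean at least 1 log2 unit (2-fold) higher, and a lowest pkl-1 array above the highest wild-type array. This rule picked 54 of 22746 probe sets, the groups of short oligonucleotides that each report a transcript on the array. Of the 54 members, 35 were paired with 1 gene and are described by name, 1 matched several genes and 18 were unnamed here. Because the rule used the contrast between the genotypes, the differences below are a description and no test of them is offered.

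PICKLE (PKL) encodes an ATP-dependent chromatin remodeller of the CHD3 class, a family of enzymes that move or space nucleosomes. In Arabidopsis PKL is known for keeping seed and embryo genes off after germination and for promoting trimethylation of lysine 27 on histone H3, the mark laid down by Polycomb repressive complex 2. Genes under that mark are often silent in most tissues of the plant, and many of them are developmental regulators.

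Whole seedlings were profiled at 14 days of age, with 3 arrays of pkl-1, a mutant allele of PKL, and 3 of the Col-0 wild type. All seedlings grew from surface-sterilised seeds on half-strength Murashige and Skoog plates in constant light and had no other treatment. The labels call the samples biological replicates without saying what was pooled in each. Signals are log2 values from GCRMA, an array method that subtracts a background predicted from probe sequence, so signals near the lower end depend on that prediction.

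Across the series, array medians lay between 5.03 and 5.13 log2 units and single values between 0.60 and 13.69. The probe set of PKL itself is not analysed here, so the genotype labels could not be checked on it. The tissue label was checked on the few marker genes with a named probe set. RCA, the rubisco activase of leaves, was at 13.24 in wild type and 13.20 in pkl-1, and of 3 root genes PYK10, a beta-glucosidase, was at 11.95 and 11.96. The root-hair expansin genes EXPA7, at 3.89 and 3.56, and EXPA18, at 4.75 and 4.58, gave weaker signals. In RNA from whole seedlings, a change in the number of cells that express a gene cannot be told apart from a change in RNA per cell.

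A wild-type mean below 3.5 was not rare: 8912 probe sets (39.2%) had one. Members were 0.606% of these. The word silent holds for part of the set only. Wild-type means of the members ran from 1.24 to 3.48 with a median of 2.70. In 14 of the 54 they lay below 2.12, the 25th percentile of all probe sets, and in another 14 they lay between 3 and 3.5. No call of presence or absence was used, so a member may have been weakly expressed in wild type. Nor did every member become abundant in pkl-1. The pkl-1 mean itself stayed below 3.5 in 12 members, and every pkl-1 array was above 5 in 8.

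**Figure D1:**
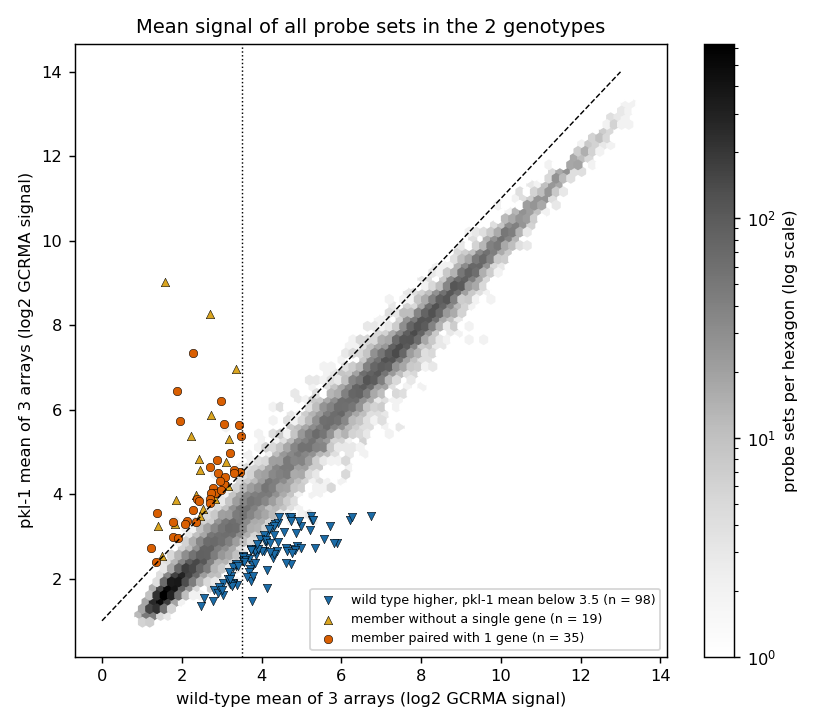
Mean log2 GCRMA signal of each of 22746 probe sets in wild type (horizontal axis, 3 arrays) and pkl-1 (vertical axis, 3 arrays), with grey hexagons for the density of all probe sets. The 54 members lie left of the dotted line at 3.5 and on or above the dashed line of a difference of 1, and the 98 probe sets of the opposite kind lie below the diagonal cloud.

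Differences among the members ran from 1.00 to 7.44 log2 units with a median of 1.48. They are given in log2 units and not as folds, because the wild-type levels were not shown to exceed background. They were 3 or more in 9 members and under 1.5 in 29. The 35 genes with a name had a median of 1.34, and the 19 other members one of 1.84. The largest difference belonged to the probe set that matches several genes, and the next, 5.55, to an unnamed one. The same rule with the genotypes exchanged, that is pkl-1 mean below 3.5 and wild type higher, picked 98 probe sets, with a median difference of 1.35 and a largest of 3.27. Probe sets low in one genotype and higher in the other were therefore fewer in the direction of pkl-1, 54 against 98, while 4 named members exceeded 3 log2 units.

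The limits of the rule cut through a continuous distribution. Just inside the ceiling were AT5G53820 and AT5G02860, with wild-type means of 3.48 and 3.47. Just outside were an unnamed probe set at 3.51 and AT1G75140 at 3.55, the latter 1.37 higher in pkl-1. AT5G23480, with a difference of 1.00, and an unnamed probe set with 1.01 were just inside the limit on the difference. An unnamed probe set with 0.997 and AT3G58540 with 0.994 were just outside it.

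**Figure D2:**
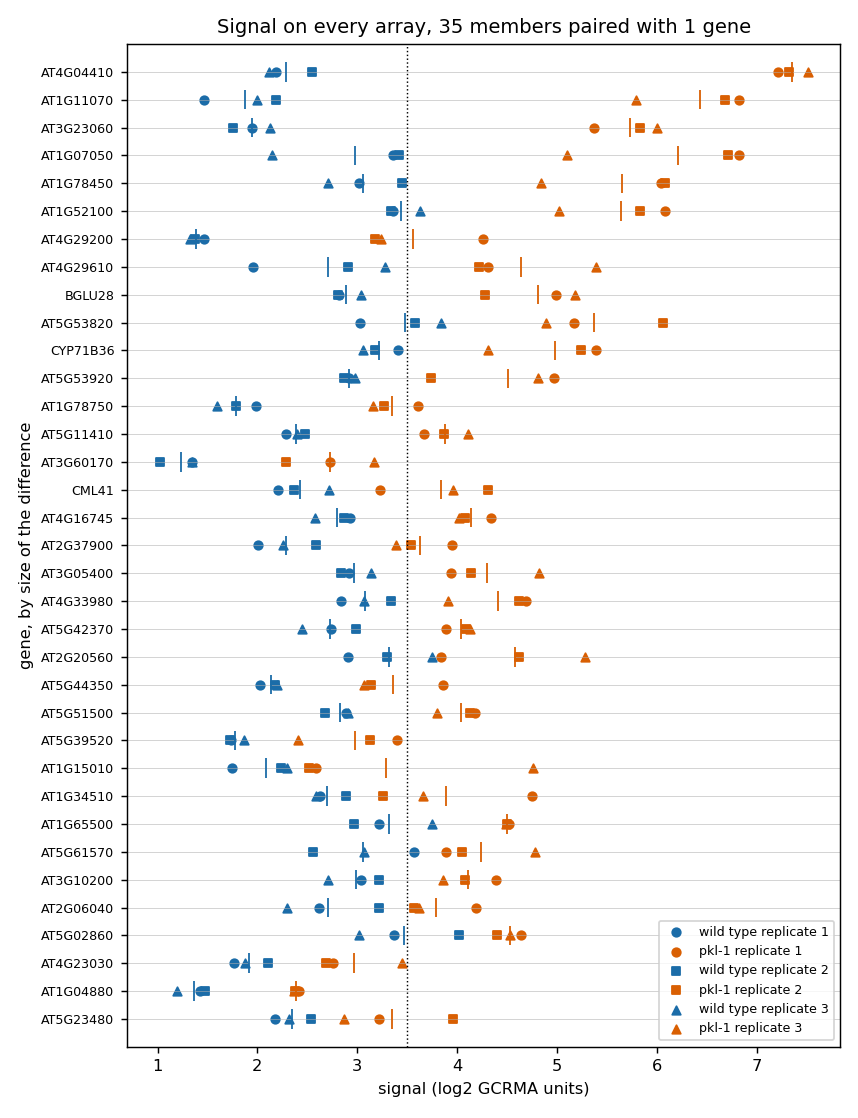
Log2 GCRMA signal on each of the 6 arrays for the 35 members paired with 1 gene, ordered by difference, with the replicate shown by the marker and the mean of each genotype by a short vertical line. Arrays of pkl-1 lie right of wild-type arrays in each row, as the rule required, by gaps that run from 0.10 for AT2G20560 to 4.66 for AT4G04410.

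Of the 35 genes, 5 encode proteins related to chromatin, DNA or RNA binding, and 2 of these had differences above 3 log2 units. AT3G23060, known as BMI1C, encodes a RING-finger protein related to the BMI1 subunits of Polycomb repressive complex 1, which acts in gene silencing alongside Polycomb repressive complex 2. Its signals were 1.95, 1.76 and 2.13 in wild-type replicates 1, 2 and 3 and 5.375, 5.828 and 5.999 in pkl-1. The genotypes were 3.25 log2 units apart at their nearest arrays, and the difference of the means was 3.79 ± 0.22 (SE of the fit, n = 3 each).

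AT1G07050 encodes a protein with a CCT motif, a domain shared with regulators of flowering and the circadian clock. It gave 3.35, 3.42 and 2.15 in wild type and 6.83, 6.72 and 5.10 in pkl-1. In both genotypes replicate 3 was the low array, and the difference of the means was 3.24 ± 0.52. Within each replicate number the difference was between 2.96 and 3.47.

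The other 3 genes of this group had differences close to the limit. AT1G04880, known as HMGB15, carries an ARID and an HMG-box DNA-binding domain and is known from pollen. Its levels (mean ± SD of 3 arrays, here and below) were 1.36 ± 0.15 in wild type and 2.39 ± 0.03 in the mutant, so that it stayed low in both. AT5G02860 encodes a pentatricopeptide repeat protein, of a family that binds organelle RNA, and was at 3.47 ± 0.50 and 4.52 ± 0.12. AT5G23480 encodes a protein with SWIB and Plus-3 domains and was at 2.35 ± 0.18 and 3.35 ± 0.56.

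The gene table lists 2 of the members as pseudogenes. AT4G04410 had the largest difference of any named member, with 2.18, 2.55 and 2.11 in wild type and 7.21, 7.33 and 7.51 in pkl-1. No pkl-1 array came within 4.66 log2 units of a wild-type array, and the means differed by 5.07 ± 0.20. AT3G60170 had the lowest wild-type mean of the 35 genes at 1.24 ± 0.19, and its pkl-1 mean of 2.73 ± 0.44 was still near the lower end of the signal.

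A further 3 members, AT5G53820, AT4G33980 and AT2G20560, were grouped by family name or known role as seed, cold and heat proteins. The seed label of AT5G53820 rests on its family name alone. AT5G53820 encodes a late embryogenesis abundant protein, of a class that protects cells during drying. It gave 3.03, 3.57 and 3.84 in wild type and 5.17, 6.06 and 4.89 in pkl-1, with the lowest pkl-1 array 1.05 above the highest wild-type one. AT4G33980, known as COR28, is a cold-regulated gene that takes part in the circadian clock, and was at 3.08 ± 0.25 in wild type and 4.41 ± 0.43 in pkl-1. Its relative COR27, which began at 4.10 ± 0.44 in wild type and so missed the ceiling, was at 6.35 ± 0.11 in pkl-1; it was named after its values were seen. AT2G20560 encodes a DnaJ-type heat shock protein. Its wild-type arrays reached 3.75 and its pkl-1 arrays began at 3.84, the closest approach of the genotypes among the 35 genes.

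Genes for the cell wall, glycosides and lectins made up 5 members. AT1G52100 encodes a jacalin-type lectin, a protein that binds sugars. It gave 3.36, 3.33 and 3.62 in wild type and 6.08, 5.83 and 5.02 in pkl-1, a difference of 2.20 ± 0.29. Wild-type replicate 3 was the highest of its genotype, while pkl-1 replicate 3 was the lowest of its own.

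BGLU28 encodes a beta-glucosidase that breaks down glucosinolates when sulfur is short. Its signals were 2.82, 2.80 and 3.04 in wild type and 4.99, 4.28 and 5.18 in pkl-1, so that the genotypes were 1.24 apart at their nearest. The pectin methylesterase gene AT5G51500, whose product modifies pectin in the wall, was at 2.82 ± 0.12 and 4.04 ± 0.21. AT4G16745, of the exostosin family of glycosyltransferases, was at 2.79 ± 0.19 and 4.14 ± 0.17. The peroxidase gene AT1G34510 was at 2.70 ± 0.16 and 3.89 ± 0.77, with pkl-1 replicate 1 well above the other pkl-1 arrays.

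Enzymes and heme-binding proteins gave 4 members, with a median difference of 1.85. AT1G78450 encodes a SOUL-type heme-binding protein and gave 3.01, 3.44 and 2.71 in wild type against 6.04, 6.08 and 4.84 in pkl-1. Replicate 3 was the lowest array in both genotypes, as for AT1G07050. AT4G29610 encodes a member of the cytidine deaminase family, which takes part in pyrimidine salvage. It gave 1.95, 2.90 and 3.28 in wild type and 4.31, 4.22 and 5.39 in pkl-1, a difference of 1.93 ± 0.42 with wide spread in both genotypes.

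CYP71B36 encodes a cytochrome P450 of the large CYP71 family of oxidising enzymes. It gave 3.40, 3.18 and 3.06 in wild type and 5.40, 5.24 and 4.31 in pkl-1. The fourth gene, AT3G10200, encodes a putative methyltransferase and was at 2.99 ± 0.26 and 4.11 ± 0.27.

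Transporters were 3 of the members, and their differences lay between 1.05 and 1.34. AT2G37900 and AT3G05400 belong to the major facilitator superfamily, the first to its nitrate and peptide transporter branch and the second to its sugar transporter branch. AT2G37900 was at 2.29 ± 0.29 in wild type and 3.62 ± 0.29 in pkl-1, and AT3G05400 at 2.97 ± 0.16 and 4.30 ± 0.46. AT4G23030 encodes a MATE-type efflux carrier and was at 1.91 ± 0.17 and 2.97 ± 0.42.

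Signalling and protein turnover were represented by 4 members with differences of 1.18 to 1.55. CML41, a calmodulin-like protein of plasmodesmata, the channels between plant cells, was at 2.43 ± 0.26 in wild type and 3.83 ± 0.55 in pkl-1. The protein kinase genes AT5G11410 and AT5G61570 differed in spread. AT5G11410 was at 2.39 ± 0.10 and 3.88 ± 0.22, while AT5G61570 was at 3.06 ± 0.50 and 4.24 ± 0.47, with a gap of 0.33 between the nearest arrays. The F-box gene AT1G78750, whose product is of a class that selects proteins for degradation, was at 1.79 ± 0.19 and 3.34 ± 0.23.

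No role is given here for 9 genes. AT1G11070 had the second largest named difference. It gave 1.46, 2.18 and 1.99 in wild type and 6.83, 6.69 and 5.79 in pkl-1, a difference of 4.55 ± 0.32. The genotypes were 3.60 apart at their nearest arrays.

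AT4G29200 gave 1.47, 1.37 and 1.33 in wild type and 4.26, 3.18 and 3.23 in pkl-1. Its wild-type arrays lay within 0.14 of each other, and pkl-1 replicate 1 stood above the other pkl-1 arrays. AT5G53920 gave 2.91, 2.86 and 2.98 in wild type and 4.97, 3.74 and 4.81 in pkl-1, where replicate 2 was the low array. The other 6 genes, AT5G42370, AT5G44350, AT5G39520, AT1G15010, AT1G65500 and AT2G06040, had differences of 1.08 to 1.31. AT2G06040 was the only named member with a further probe set of its own, which was at 2.59 in wild type and 3.45 in pkl-1, a difference of 0.86 that fell short of the rule.

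Arrays of pkl-1 varied more than arrays of wild type for most members. The standard deviation over 3 arrays was larger in pkl-1 in 41 of 54, with a median of 0.47 log2 units against 0.23 for wild type. Among the other probe sets with a wild-type mean below 3.5 the medians were 0.16 and 0.15, and pkl-1 was the more variable genotype in 52.1% of them. In the 98 probe sets of the opposite kind, the genotype with the higher signal was again the more variable, with medians of 0.43 in wild type and 0.27 in pkl-1. In both sets the more variable genotype was the one with the higher signal. Among 13661 other probe sets with pkl-1 means in the members' wide range, 2.39 to 9.02, the median standard deviation in pkl-1 was 0.19. For the members it was 0.47. Both the members and the opposite set were chosen on these same arrays, so the rule itself may have shaped their spread, which was not tested.

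**Figure D3:**
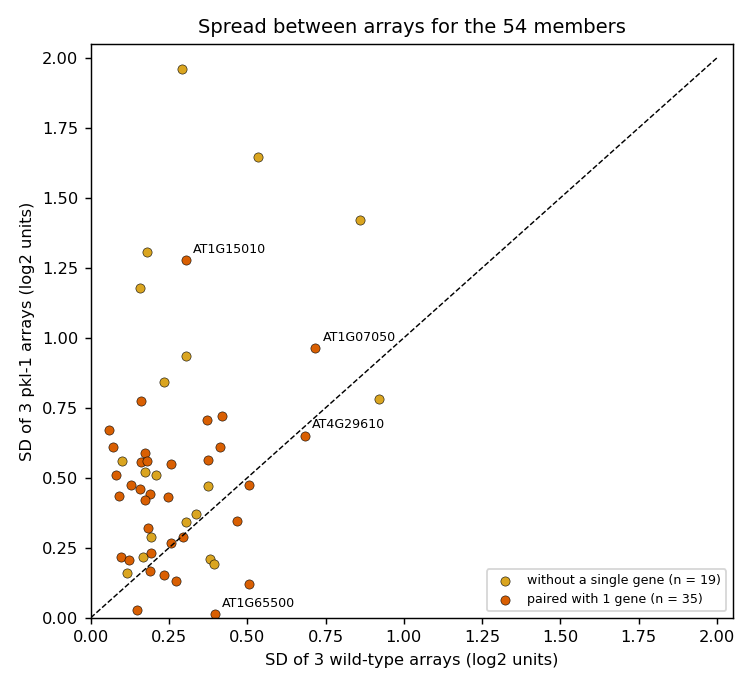
Standard deviation of the 3 pkl-1 arrays (vertical axis) against that of the 3 wild-type arrays (horizontal axis) for the 54 members, in log2 units, with a dashed line where both are equal. Points above the line, 41 of 54, varied more in pkl-1, with AT1G15010 at 1.28 the highest of the named genes and AT1G65500 at 0.01 the lowest.

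Single arrays carried some of these values. AT1G15010 gave 2.59, 2.52 and 4.76 in pkl-1, and without pkl-1 replicate 3 its difference of 1.20 became 0.46. With 1 array left out, the lowest and highest differences also stood more than 1.5 times apart for AT1G34510 (0.758 to 1.504), AT2G20560 (0.91 to 1.63), AT5G23480 (0.70 to 1.25), AT5G02860 (0.83 to 1.33), AT5G61570 (0.91 to 1.43) and AT2G06040 (0.87 to 1.33). In AT4G04410, by contrast, the difference stayed between 4.98 and 5.20 whichever array was left out. The standard deviation in pkl-1 exceeded 1 log2 unit in 6 members, of which 5 were unnamed. The highest pkl-1 array was replicate 1 in 25 members, replicate 3 in 23 and replicate 2 in 6. The same count was not made over all probe sets, so it is not read as a trait of the members. The ceiling and the limit on the difference both held whichever 1 of the 6 arrays was left out in 32 of the 54 members. The condition of no overlap cannot fail for a member when an array is left out. Replicate numbers ranked the arrays in the same order in both genotypes in 20.4% of members and in 25.1% of all probe sets.

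The overlap condition and limma's test bear on the same contrast and are given as background. Groups without overlap and with pkl-1 higher occurred in 10.6% of all probe sets, and in 819 of the 8912 with a low wild-type mean. In limma's fit over all probe sets, 34 of the 54 members had an adjusted p under 0.05, where 1.06% of all probe sets passed with pkl-1 higher. Of the 35 named genes 25 passed. The 34 became 11 without wild-type replicate 2, 16 without pkl-1 replicate 2, 19 without wild-type replicate 1 or 3, 20 without pkl-1 replicate 1 and 26 without pkl-1 replicate 3. No p is given for single members, since they were chosen on these values.

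What the rule did not use was the place of the genes. By their locus codes, 9 of the 35 named genes lie on chromosome 1, 4 on chromosome 2, 6 each on chromosomes 3 and 4, and 10 on chromosome 5. Of all named probe sets with a locus, 25.7% were on chromosome 1 and 22.4% on chromosome 5, and the members had 25.7% and 28.6% there. Protein-coding genes were 33 of the 35. Pseudogenes were 2 of the 35 (5.71%), 6.87% of all named probe sets with a locus and 14.9% of the 6089 of these with a low wild-type mean.

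No named member lay within 5 loci of another. Of the 350 loci in that window on either side of the members, 134 had a named probe set. Their median difference was 0.03 log2 units, and 8 of the 134 (5.97%) had all pkl-1 arrays above all wild-type arrays, where 9.70% of all 13286 named genes did. Of the 134, 1 passed limma's threshold with pkl-1 higher, where 0.881% of the same genes did, and the other 133 had differences between -0.66 and 0.68. The neighbour that passed was AT1G78780, which lies 3 loci from the F-box gene AT1G78750. It gave 4.01, 3.90 and 4.25 in wild type and 5.995, 6.081 and 5.701 in pkl-1, a difference of 1.87, and its wild-type mean of 4.05 kept it out of the set. Of the neighbours, 61 were themselves below 3.5 in wild type, and in 1 of these all pkl-1 arrays were above all wild-type arrays. Among probe sets with a low wild-type mean that were not members, 765 of 8858 were separated in that direction. That set also holds unnamed probe sets, while the neighbours were named genes taken at their brightest probe set.

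**Figure D4:**
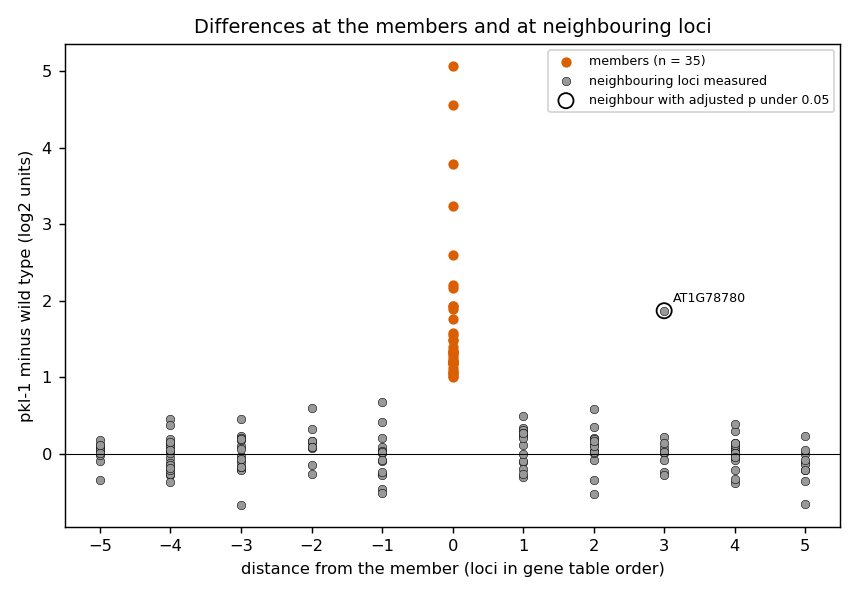
Difference between pkl-1 and wild type in log2 units (vertical axis) for the 35 named members at 0 and for measured loci up to 5 positions away in the order of the gene table (horizontal axis). The members start at 1.00, and apart from the circled AT1G78780 at 1.87 the neighbours lie between -0.66 and 0.68.

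Lists of developmental, tissue and chromatin genes were set beside the members. Of 88 genes in 9 lists for embryo, seed reserve, endosperm, floral, meristem, anther, root, leaf and chromatin functions, 14 were measured by a named probe set. These were 1 of 8 embryo, 2 of 6 endosperm, 2 of 16 floral and 1 of 8 meristem genes. Also measured were 3 of 6 anther, 3 of 9 root, 1 of 5 leaf and 1 of 19 chromatin genes. So few genes do not stand for their lists. Over these lists 1 gene passed limma's threshold with pkl-1 higher, BMI1C, which is AT3G23060 above, and 1 with pkl-1 lower, the flowering gene AGL24 at -2.40. The rule chose BMI1C on this same contrast, so its passing is not a result about the lists. Over all probe sets 1.06% passed with pkl-1 higher and 1.31% with pkl-1 lower.

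Of the 14 genes, 9 had a wild-type mean below 3.5, and BMI1C was the single member among them. The other 8 differed by -0.64 to 0.15 log2 units and did not meet the rule. The embryo regulator BBM was at 1.62 in wild type and 1.45 in pkl-1. The endosperm genes AGL62 and IKU2 were at 1.97 and 1.74 in wild type and at 1.84 each in pkl-1. The stem-cell peptide gene CLV3 was at 1.18 and 1.20, and the 3 measured anther genes, A9, AMS and SPL, were between 1.45 and 1.77 in both genotypes. The flowering gene AGL19 was at 2.47 and 1.84. None of the 11 listed seed reserve genes had a named probe set, so that programme is not analysed here.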

How the data were processed

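Per the submitters' processing notes, the authors made the deposited log2 values with GCRMA, with no version, genome build or annotation stated in the sources used here; the log2 scale was read from the values. The table held 22810 probe sets, of which 64 controls were left out. By the platform annotation 13513 probe sets match 1 gene, 503 match several and 8730 have no name here; loci came from the TAIR10.1 gene table (13436 matched). No coordinates or sequences are printed, and promoter motifs and protein lengths, planned as descriptions, were not used here.

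The members, lists and role groups were chosen with earlier results of these data known. The rule was applied to the values as deposited. Every member paired with 1 gene is named, and values of every array are given for the 12 with the largest differences and for those whose pkl-1 arrays all exceeded 5. limma 3.58.1 in R 4.3.3 (lmFit, eBayes with trend, 2-sided, Benjamini-Hochberg over 22746 probe sets, threshold 0.05) gave standard errors and background counts. A trial on simulated data, whose outcome is not given here, added changes only to probe sets with a mean above 3. Dimmer probe sets, as many members are, were not covered by that trial. The p-values set the genotype difference against the spread between these arrays only, with variances moderated over all probe sets. Precision is limited by the 3 arrays per genotype. A gene with several probe sets was represented as a neighbour or list member by the brightest. Python 3.11.15 and matplotlib 3.10.9 were used. Alternatives were other normalizations, moderation, weights, a filter on means under 3, a replicate block, other limits of the rule and each array left out.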

Additional observations from a re-analysis of the deposited data

How the results depend on the processing

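The rule picked 54 members, 57 after quantile normalization (53 of the 54 kept), 52 after centring on array medians, 40 and 66 with ceilings of 3 and 4, 66 if groups could overlap, 25 with a difference of 1.5 or more, 86 with 0.8 or more, and 56 to 80 without 1 array. Other ceilings, other limits on the difference and allowed overlap change the count by construction. Members called by limma numbered 34, and 31 to 44 in the rescalings, moderation settings, weights and replicate block. With the filter on means under 3 they numbered 25, where the filter took dim members out before the fit. They were 10 at an adjusted p under 0.01 and 11 to 26 without 1 array. Over all probe sets 540 were called, 111 at an adjusted p under 0.01 and 123 to 303 without 1 array. The stricter threshold lowers the count by construction. Without 1 array the count depended on the array, from 123 without pkl-1 replicate 2 to 303 without wild-type replicate 1, and the cause was not tested. With the replicate block 1518 were called, and the cause was not tested. Deviations from the genotype means correlated at 0.485, -0.017 and 0.576 for replicates 1, 2 and 3, so arrays of replicates 1 and 3 varied together across genotypes. The labels state no shared batch, and the main fit left the replicate numbers out for that reason. Whether the arrays were paired was not tested. Of 280 differences of the 35 named genes under 8 alternatives, 19 fell under 1, the lowest to 0.46; with an array left out their sign was fixed by the rule. Signals near the lower end depend on the background that GCRMA predicts, and how far this affects these sizes was not tested.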
